A study of Mus musculus with 8 samples.

Results

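Ligands, receptors and latency proteins of the transforming growth factor beta (TGF-beta) system were followed in macrophages sorted from mouse liver. The 10 genes are a fixed list of symbols (Tgfb1, Tgfb2, Tgfb3, Tgfbr1, Tgfbr2, Ltbp1, Ltbp3, Lrrc32, Nrros and Tgfbi) out of 35906 genes with summed counts, and all 10 passed the filter on low counts that left 15212 genes to be tested. The list was chosen with earlier results of these data known, so its counts beside all genes tested describe it and do not test it as a set. RNA was sequenced from 4 samples of vehicle-treated and 4 of CCl4-treated wild-type BALB/c mice, and the sources used here do not give ages or the CCl4 dose and duration. CCl4 (carbon tetrachloride) is a liver toxin that is widely used to produce fibrosis in mice. Cells from perfused, collagenase-digested livers were sorted as live CD45-positive, F4/80-positive cells, and the series' design text adds CD31-negative. Whether every library came from its own mouse is not stated in the labels, and p-values therefore cover the spread among these 8 samples, technical spread included.

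TGF-beta is made as a latent complex: the mature cytokine stays wrapped in its own propeptide until integrins, proteases or thrombospondin free it. Latent TGF-beta-binding proteins (Ltbp1, Ltbp3) store that complex in the matrix, whereas Lrrc32 (also called GARP) and Nrros (also called LRRC33) tether it to the cell surface. Freed ligand binds the type II receptor kinase Tgfbr2, which recruits the type I kinase Tgfbr1, and Tgfbr1 phosphorylates the Smad2 and Smad3 transcription factors. In injured liver the pathway is best known for turning hepatic stellate cells into matrix-producing myofibroblasts, with macrophages counted among the sources of the ligand.

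The member genes moved in both directions. Transcripts of Tgfb3, Tgfbr1, Ltbp3 and Lrrc32 rose 3.08- to 6.70-fold in the CCl4 group, those of Tgfb2 and Ltbp1 fell, and those of Tgfb1, Tgfbr2, Nrros and Tgfbi did not pass the test. Thus 4 of 10 were higher by edgeR's quasi-likelihood test at an adjusted p under 0.05, against 8.93% of all genes tested, and 2 of 10 were lower, against 6.26%. The same 6 genes were those whose libraries did not overlap between groups (background 13.0% higher and 9.49% lower). The median log2 fold change of the 10 genes was -0.05, beside -0.03 over all genes tested. Levels are CPM, counts as a rate of the library total, scaled by TMM (edgeR's normalization between libraries), with means ± SD over n = 4, and a log2 fold change is CCl4 over vehicle with its standard error (SE). In sorted bulk cells, a change in how many cells of one kind were collected and a change in RNA per cell cannot be told apart.

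**Figure D1:**
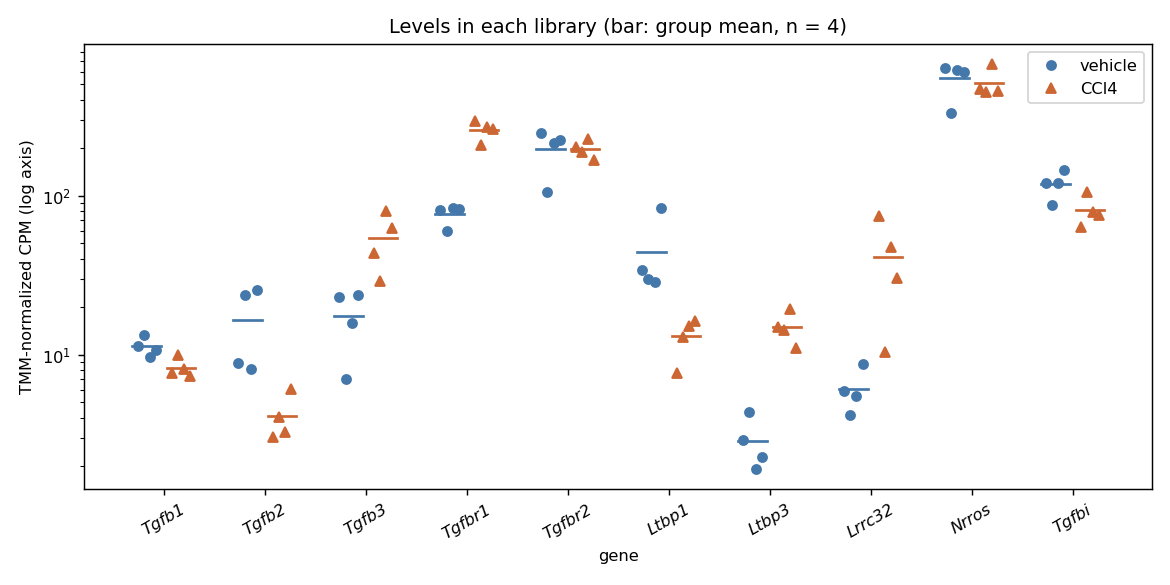
TMM-normalized CPM (log axis) of the 10 genes, with 1 point per library (circles vehicle, triangles CCl4) and a bar at each group mean (n = 4). The groups do not overlap for Tgfb2, Tgfb3, Tgfbr1, Ltbp1, Ltbp3 and Lrrc32, and Nrros has the highest mean in both groups.

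Coordinates are those of mm10 with GENCODE M21, and upstream sequences are from RefSeq on GRCm38.p6, the same build. The genes lie on 9 chromosomes, only Tgfb1 (chr7:25687002-25705077, plus strand) and Lrrc32 (chr7:98489283-98502181, plus strand) sharing one. RefSeq windows were found for 8 of the 10 genes, with 2 starts each for Ltbp1 and Tgfbr1, and 4 of these 10 windows are shown, each holding the 250 bases before an annotated start, 5′ to 3′ on the gene's strand. Their genes changed with CCl4, and Ltbp1 has alternative starts that the transcript values separate. The windows of Ltbp3, which also changed, and of the internal Tgfbr1 start are not shown. The Tgfb2 window overlaps an exon of Gm29491, an antisense gene. Capitals mark motif matches.
Ltbp1 short-form start (chr17:75178531-75178780, plus): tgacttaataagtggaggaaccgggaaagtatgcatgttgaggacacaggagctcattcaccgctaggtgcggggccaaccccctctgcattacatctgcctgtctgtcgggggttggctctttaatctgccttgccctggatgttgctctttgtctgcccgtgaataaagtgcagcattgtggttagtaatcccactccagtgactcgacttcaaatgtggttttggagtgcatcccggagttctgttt
Ltbp1 long-form start (chr17:75005279-75005528, plus): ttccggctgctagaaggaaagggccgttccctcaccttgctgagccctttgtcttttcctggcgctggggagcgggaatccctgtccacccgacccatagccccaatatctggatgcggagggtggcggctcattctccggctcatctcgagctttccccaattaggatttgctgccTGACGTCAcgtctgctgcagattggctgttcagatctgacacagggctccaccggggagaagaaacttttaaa
Tgfbr1 upstream start (chr4:47352972-47353221, plus): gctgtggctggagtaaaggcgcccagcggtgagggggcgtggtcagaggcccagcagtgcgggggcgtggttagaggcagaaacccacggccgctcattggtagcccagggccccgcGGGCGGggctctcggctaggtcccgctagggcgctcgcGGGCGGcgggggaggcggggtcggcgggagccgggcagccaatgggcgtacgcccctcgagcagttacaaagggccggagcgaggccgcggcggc
Tgfb2 start (chr1:186705990-186706239, minus): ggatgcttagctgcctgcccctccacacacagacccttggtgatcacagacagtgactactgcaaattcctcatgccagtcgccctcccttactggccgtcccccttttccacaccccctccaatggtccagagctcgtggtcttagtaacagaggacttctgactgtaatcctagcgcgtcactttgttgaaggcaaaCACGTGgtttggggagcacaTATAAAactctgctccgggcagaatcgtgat

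Motifs were searched on both strands in these windows and in 32851 RefSeq promoter windows of the same length. The motifs were AP-1 (TGANTCA, in 6.75% of all windows), the palindromic SMAD element (GTCTAGAC, 0.167%), the E-box (CACGTG, 6.02%), the cyclic-AMP response element or CRE (TGACGTCA, 1.55%), the TATA box (TATAAA, 12.4%), the GC box (GGGCGG, 32.7%) and the PU.1 core (GAGGAAG, 10.6%). The Tgfb2 window held an E-box and, 31 bases before the start, a TATA box. The long-form Ltbp1 window held a CRE at -73, and the short-form window, 50.8% GC, held none of the 7 motifs. The Tgfbr1 window, 74.8% GC, held 2 GC boxes at -133 and -95. Neither AP-1 nor the SMAD palindrome was matched in any of the 10 windows. These matches are letters in the reference sequence, and factor binding was not measured here.

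Of the 3 ligands, Tgfb2 fell, Tgfb3 rose and Tgfb1 did not pass the test. Tgfb2 (chr1:186622792-186705989, minus strand), an isoform with known roles in epithelial and mesenchymal development, stood at 8.85, 23.6, 8.15 and 25.5 CPM in vehicle 1 to 4. In CCl4 1 to 4 it was 3.01, 4.06, 3.26 and 6.04 CPM. Vehicle 2 and 4 were high, vehicle 1 and 3 lower, and all 4 lay above every CCl4 library. The mean went from 16.5 ± 9.32 to 4.09 ± 1.37 CPM (log2 -2.01, SE 0.40, edgeR adjusted p = 0.00544).

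Of 12 stellate cell and fibroblast markers 4 were higher in CCl4 (Hgf, Col1a1, Col1a2, Col3a1) and 3 lower (Lrat, Reln, Colec11), none of them at 0 in all libraries. The 4 higher ones rose by log2 1.3, 2.5, 1.7 and 1.6, in the direction opposite to Tgfb2. Dcn was the most abundant of the 12 by CPM and so weighed most in their sum. The sum of all 12, 221, 626, 157 and 441 CPM in vehicle 1 to 4 against 195, 281, 336 and 303 in CCl4 1 to 4, was highest in vehicle 2 and 4, as Tgfb2 was. Reln and Lrat, 2 genes of stellate cells named after their values were seen, also stood highest in these 2 libraries. Reln read 8.01, 28.1, 6.17 and 24.8 CPM in vehicle 1 to 4 against 4.72, 2.44, 4.16 and 8.04 in CCl4 1 to 4 (edgeR adjusted p = 0.0322, up to 0.106 without vehicle 2 or 4 or CCl4 1, 2 or 3), and Lrat, the retinyl ester synthase of stellate cells, read 10.7, 19.6, 6.21 and 15.6 and 2.27, 2.13, 2.44 and 4.04 (edgeR adjusted p = 0.00129). The platelet marker sum was highest in the same pair, at 165, 333, 129.6 and 268 CPM in vehicle 1 to 4. Stellate cells lack CD45, and a CD45-positive gate is meant to remove them. The part of these cells in the Tgfb2 values was not tested.

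Tgfb3 (chr12:86056745-86079041, minus strand), whose protein activates the same receptors, was 23.1, 6.97, 15.9 and 23.6 CPM in vehicle 1 to 4. The CCl4 libraries 1 to 4 read 43.2, 29.1, 79.8 and 62.7 CPM. The lowest CCl4 library was above the highest vehicle library, and the spread within CCl4 was wide. The mean rose from 17.4 ± 7.82 to 53.7 ± 22.2 CPM, 3.08-fold (log2 1.62, SE 0.38, edgeR adjusted p = 0.0132).

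Tgfb3 shares its locus with Ttll5, a tubulin-modifying enzyme on the opposite strand, and reads of the 2 genes cannot be told apart where they overlap, since no strand-marking step is named. Ttll5 itself stood at 7.02 ± 1.88 CPM in vehicle and 11.97 ± 3.77 in CCl4 (edgeR adjusted p = 0.0694). Of 9 mesothelial markers 7 were higher in CCl4, and their sum was 21.5, 16.7, 8.86 and 39.8 CPM in vehicle 1 to 4 against 87.4, 80.3, 177 and 82.9 in CCl4 1 to 4. Both that sum and Tgfb3 were highest in CCl4 3 and, within the group, lowest in CCl4 2, with CCl4 1 and 4 in opposite order. The defining marker Msln read 2.60, 0.325, 0.949 and 3.08 and 15.5, 14.9, 52.2 and 15.6 CPM. Mesothelial cells, too, lack the CD45 of the gate. The part of mesothelial cells in the Tgfb3 values was not tested.

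Tgfb1, the isoform best known in fibrosis and immune control, ranged over 9.61 to 13.3 CPM in vehicle and 7.32 to 9.94 in CCl4, with overlap of CCl4 2 and vehicle 3. Its log2 fold change was -0.44 (SE 0.18, edgeR adjusted p = 0.127). The protein-coding transcript, Tgfb1-201, held between 26.6% and 42.5% of the gene's estimated counts in a library. Per length it read 1.98, 3.30, 2.24 and 2.74 TPM, a rate that corrects for transcript length, in vehicle 1 to 4 against 1.24, 2.06, 1.92 and 1.53 in CCl4 1 to 4. By estimated counts the largest part in every library was Tgfb1-204, a retained-intron transcript of 2573 bases with 0.0% of them in exons of Tgfb1-201. It held 134 to 161 counts per vehicle library and 82.8 to 150 per CCl4 library, so the gene's CPM rests largely on it. On protein-coding transcripts alone Tgfb1 did not pass (log2 -0.59, edgeR adjusted p = 0.216). The largest noncoding part by mean TPM was Tgfb1-205, a processed transcript of 241 bases of which 31.5% lie in exons of Tgfb1-201. Its share of the gene's TPM was 62.5, 63.8, 54.1 and 65.3% over vehicle 1 to 4 and 22.6, 29.5, 32.8 and 58.7% over CCl4 1 to 4, lower by 25.5 percentage points in the mean, with vehicle 3 and CCl4 4 overlapping (two-sided exact permutation p = 0.0571, 0.257 adjusted over the 9 transcript shares tested). That transcript carried 10.8 to 21.9 estimated counts per vehicle library and 3.68 to 9.0 per CCl4 library, so its TPM rests on few reads. On length-scaled counts Tgfb1 passed as lower (log2 -0.79, edgeR adjusted p = 0.0263).

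Of the 2 signalling receptors, Tgfbr1 rose and Tgfbr2 did not pass the test. Tgfbr1 (chr4:47353222-47414931, plus strand) read 80.9, 60.2, 83.5 and 82.5 CPM in vehicle 1 to 4. In CCl4 1 to 4 it read 294, 207, 269.8 and 261 CPM, so that the lowest CCl4 library was above the highest vehicle library by more than the whole range of the vehicle group. The mean rose from 76.8 ± 11.1 to 258 ± 36.5 CPM, 3.36-fold (log2 1.75, SE 0.17, edgeR adjusted p = 6.16e-05). Transcripts from the GC-rich upstream start shown above carried the gene, at 18.2, 11.9, 20.3 and 21.5 TPM in vehicle 1 to 4 against 66.5, 49.0, 57.2 and 67.7 in CCl4 1 to 4. The single transcript from the internal start read 1.86, 3.71, 2.77 and 3.32 and 4.65, 3.89, 3.94 and 12.2 TPM.

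Tgfbr2 (chr9:116084293-116175360, minus strand) was 247, 105, 213 and 223 CPM in vehicle 1 to 4 against 203, 188, 228 and 167 in CCl4 1 to 4. Vehicle 2 was the lowest of all 8 libraries, and the group means were 197 ± 62.9 and 197 ± 25.6 CPM (edgeR adjusted p = 0.993). The sign of its log2 fold change, -0.00 (SE 0.23), turned under 14 of 22 other settings, within -0.21 to 0.23. Both of its annotated transcripts are coding, and Tgfbr2-201 took 56.8, 16.9, 52.3 and 53.3% over vehicle 1 to 4 and 58.8, 55.5, 58.8 and 56.9% of the gene's TPM in CCl4 1 to 4. Vehicle 2 stood apart at 16.9%, and the difference between groups did not pass (exact permutation p = 0.0571, adjusted 0.257, where the smallest p that 4 against 4 allows is 0.0286).

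The 2 matrix-storage proteins moved in opposite directions. Ltbp1 (chr17:75005568-75392512, plus strand) was 34.2, 29.7, 28.4 and 82.9 CPM in vehicle 1 to 4. In CCl4 1 to 4 it was 7.63, 12.9, 15.2 and 16.2 CPM. Every CCl4 library lay below every vehicle library, and vehicle 4 stood far above the other 3 of its group. The mean fell from 43.8 ± 26.2 to 12.99 ± 3.82 CPM (log2 -1.75, SE 0.36, edgeR adjusted p = 0.00619), and without vehicle 4 it was -1.24 with an edgeR adjusted p of 0.00686.

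Ltbp1 is transcribed from 2 starts whose products differ at the N-terminal end of the protein, and the short form carried most of the reads. Transcripts of the short-form start read 7.54, 5.61, 7.15 and 20.9 TPM in vehicle 1 to 4 against 1.61, 2.87, 3.17 and 3.56 in CCl4 1 to 4. Coding transcripts of the long-form start read 0.504, 0, 0.120 and 0.961 and 0.199, 0.116, 0.0938 and 0.384 TPM. The high value of vehicle 4 was thus in the short form, and the coding transcripts of the long form stayed under 1 TPM in all 8 libraries. Noncoding transcripts of 519 and 823 bases at the long-form start brought its total to 8.47 TPM in CCl4 4 and 5.42 TPM in vehicle 2, on 78.0 and 28.4 estimated counts. By TPM of the whole gene the groups overlapped, with CCl4 4 at 12.1 TPM above vehicle 1 and 3 at 9.27 and 8.71.

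Most sinusoidal endothelial markers were lower in CCl4, as Ltbp1 was. Of 13 sinusoidal endothelial markers 9 were lower and 1 higher (Fcgr2b), and their sum, 896, 734, 959 and 1209 CPM in vehicle 1 to 4 against 561, 557, 675 and 586 in CCl4 1 to 4, was highest in vehicle 4. Fcgr2b, which rose (log2 1.54), was the most abundant of the 13 by CPM and so weighed most in their sum. Among the lower markers Kdr, Gpr182 and Tek lost their calls in some fits that left out 1 library (adjusted p up to 0.0651 by edgeR). Pecam1, which encodes the CD31 of the gate, read 80.1, 43.5, 78.5 and 93.2 and 29.9, 24.4, 29.9 and 25.6 CPM. Of 8 platelet markers tested 2 were lower (Pf4, Selp) and 1 higher (Itgb3), Pf4 losing its call (adjusted p up to 0.111 by edgeR) when vehicle 1, 2 or 4 or CCl4 1, 3 or 4 was left out, with sums of 129.6 to 333 and 56.3 to 137 CPM. Their part in the Ltbp1 values was not tested.

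Ltbp3 (chr19:5740904-5758532, plus strand), low in vehicle, rose. It read 2.88, 4.37, 1.90 and 2.28 CPM in vehicle 1 to 4. In CCl4 1 to 4 it read 14.99, 14.4, 19.5 and 11.03 CPM. The groups were far apart, with the highest vehicle library at less than the lowest CCl4 library. The mean rose from 2.86 ± 1.08 to 14.96 ± 3.47 CPM, 5.25-fold (log2 2.39, SE 0.28, edgeR adjusted p = 0.000217).

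The full-length coding transcript Ltbp3-201 read 0.203, 0.132, 0 and 0 TPM in vehicle 1 to 4 against 1.37, 1.08, 1.77 and 1.43 in CCl4 1 to 4. More of the gene's TPM lay in Ltbp3-202, a transcript of 2099 bases at the 3′ end that retains an intron, at 1.11, 1.84, 0.431 and 0.571 and 4.89, 5.36, 4.37 and 3.04 TPM. Both therefore stood higher in every CCl4 library. Counting protein-coding transcripts alone, an alternative chosen after the data were seen, the log2 fold change was 3.89 (edgeR adjusted p = 0.00242).

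**Figure D2:**
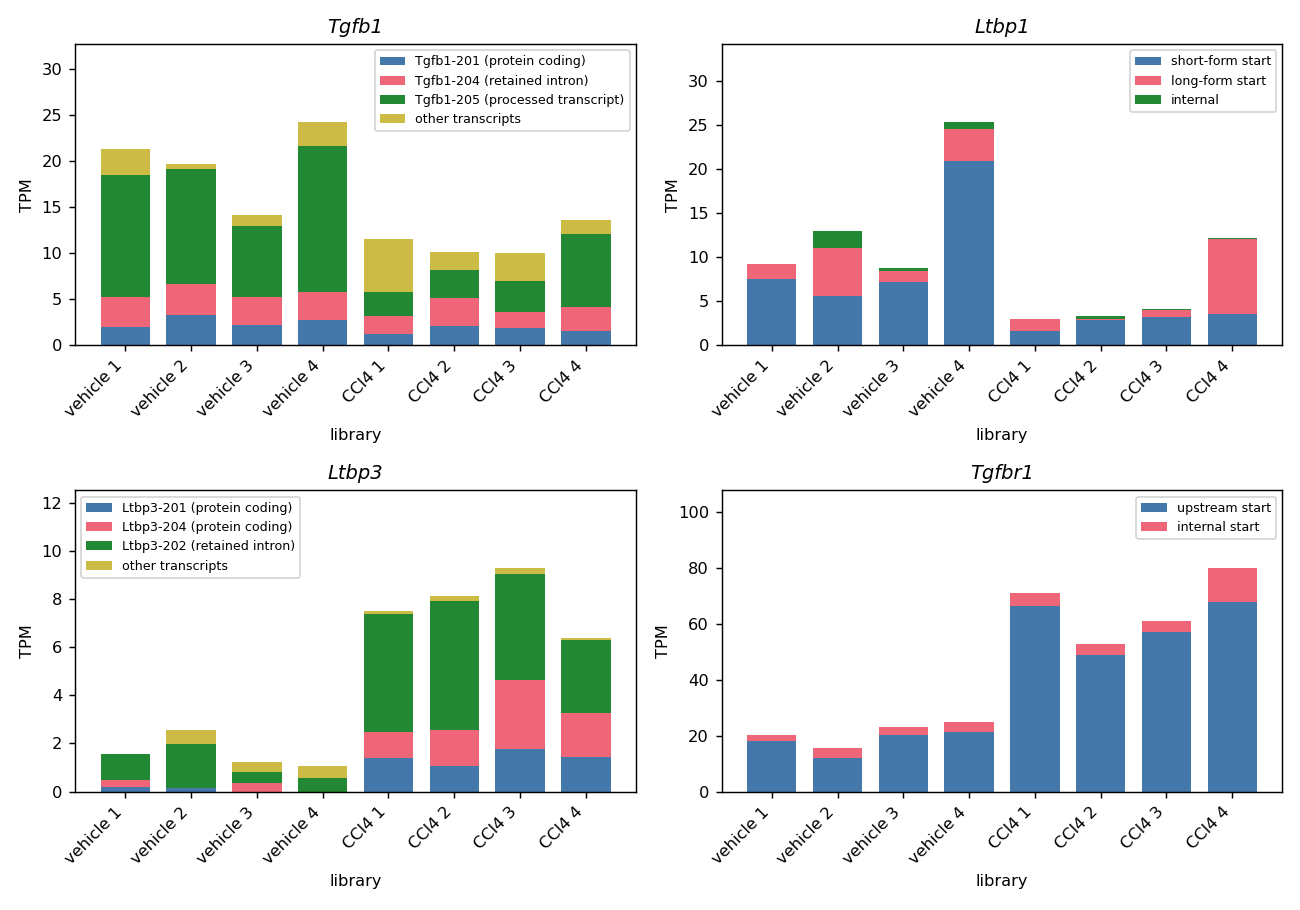
TPM per library of the transcripts of Tgfb1 and Ltbp3 and of the transcription starts of Ltbp1 and Tgfbr1, stacked, with 1 bar per library. The short-form start makes up most of the Ltbp1 TPM in 6 of 8 libraries, all but vehicle 2 and CCl4 4, and the upstream start carries Tgfbr1 in all 8.

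Of the 2 surface tethers, Lrrc32 rose and Nrros did not pass the test. Lrrc32, which holds latent TGF-beta on regulatory T cells and platelets, read 5.93, 4.18, 5.46 and 8.72 CPM in vehicle 1 to 4. The CCl4 libraries 1 to 4 read 74.7, 10.4, 47.7 and 30.5 CPM. CCl4 1 was the highest and CCl4 2 the lowest of its group, and even CCl4 2 was above all vehicle libraries. The mean rose from 6.07 ± 1.92 to 40.8 ± 27.3 CPM, 6.70-fold (log2 2.75, SE 0.48, edgeR adjusted p = 0.00268).

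Markers of regulatory T cells and platelets, in which Lrrc32 is best known, did not share 1 direction. Foxp3, the defining factor of regulatory T cells and named after its values were seen, read 0.721, 0.464, 0.198 and 0.720 CPM in vehicle 1 to 4 against 1.11, 1.22, 0.951 and 1.24 in CCl4 1 to 4, without overlap and without a call (edgeR adjusted p = 0.172). Of 10 T cell markers 1 was higher (Ctla4) and none lower by edgeR (1 lower at an unadjusted p under 0.05 and 1 lower by DESeq2, median log2 0.31), and their sum, with overlap, was 69.8 to 79.7 CPM in vehicle and 47.8 to 73.0 in CCl4. Platelet markers (2 lower, 1 higher) and mesothelial markers (7 of 9 higher) had the sums given above. The part of any of these cells in the Lrrc32 values was not tested.

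Nrros (chr16:32142785-32165594, minus strand), the tether of macrophages and microglia, was the most abundant of the 10 genes. It read 636, 331, 617 and 599 CPM in vehicle 1 to 4 against 468, 447, 669 and 456 in CCl4 1 to 4. Vehicle 2 was low and CCl4 3 high against the rest of their groups, and the groups overlapped. The means were 546 ± 144 and 509.8 ± 107 CPM (log2 -0.10, SE 0.22, edgeR adjusted p = 0.825).

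Tgfbi (chr13:56609523-56639562, plus strand), a secreted adhesion protein named for its induction by TGF-beta, was 120.3, 87.5, 119 and 145 CPM in vehicle 1 to 4. In CCl4 1 to 4 it was 63.6, 104, 78.8 and 75.6 CPM. CCl4 2 overlapped the vehicle range, and the other 3 CCl4 libraries lay below it. The mean was 118 ± 23.6 CPM in vehicle and 80.6 ± 17.2 in CCl4 (log2 -0.55, SE 0.19), which did not pass (edgeR adjusted p = 0.0791). It passed as lower with library-size scaling alone (edgeR adjusted p = 0.0380), with upper-quartile scaling (0.0288), without vehicle 2 (0.0190), without CCl4 2 (0.0406) and on protein-coding transcripts (0.0488).

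Ranked per length by mean TPM of the whole gene, the order of levels changed between the groups. In vehicle it was Nrros (301 ± 90.3 TPM), Tgfbi (62.6 ± 15.01), Tgfbr2 (43.8 ± 18.0), Tgfbr1 (20.9 ± 4.03), Tgfb1 (19.8 ± 4.22), Ltbp1 (14.1 ± 7.73), Tgfb3 (6.84 ± 3.21), Tgfb2 (6.56 ± 4.39), Lrrc32 (2.14 ± 0.786) and Ltbp3 (1.60 ± 0.667). Among neighbours in that order, only Nrros and Tgfbi had ranges that did not overlap. In CCl4 it was Nrros (269 ± 39.7 TPM), Tgfbr1 (66.3 ± 11.8), Tgfbr2 (44.8 ± 2.13), Tgfbi (44.5 ± 9.79), Tgfb3 (20.4 ± 8.05), Lrrc32 (13.5 ± 9.15), Tgfb1 (11.3 ± 1.63), Ltbp3 (7.81 ± 1.21), Ltbp1 (5.63 ± 4.35) and Tgfb2 (1.42 ± 0.499). There the neighbours Tgfbr2 and Tgfbi, Tgfb3 and Lrrc32, Lrrc32 and Tgfb1, and Ltbp3 and Ltbp1 overlapped.

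The place of the ligands in that order depended on which transcripts were counted. Counting coding transcripts alone, Tgfb3 had the highest mean of the 3 ligands in both groups, at 6.84 TPM in vehicle and 20.4 in CCl4. In vehicle its range overlapped those of the other ligands. Vehicle 2 had Tgfb3 at 2.54 TPM, below Tgfb2 (5.47) and Tgfb1 (3.30). Coding Tgfb1 was 2.56 TPM in vehicle, in a range that overlapped that of Tgfb2, and 1.69 in CCl4.

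The FPKM matrix that the authors deposited gave the same direction for the 6 genes that passed on counts, and fewer calls. On log2(FPKM + 0.1) limma called Tgfbr1 (adjusted p = 0.00402) and Ltbp3 (0.00888). Ltbp3 read only 0.0254, 0.0144, 2.81e-08 and 0 FPKM in vehicle 1 to 4. In CCl4 1 to 4 it read 0.148, 0.132, 0.214 and 0.128 FPKM. The size of its change thus depends on the value added, at log2 1.21 with 0.1 and 0.19 with 1. The limma adjusted p was 0.0847 for Lrrc32, 0.127 for Tgfb2, 0.138 for Tgfb3 and 0.344 for Ltbp1. Tgfb2 read 0.339, 1.02, 0.334 and 1.54 FPKM in vehicle 1 to 4 against 0.0885, 0.213, 0.148 and 0.154 in CCl4 1 to 4, without overlap. Ltbp1 overlapped, at 0.982, 1.94, 0.886 and 2.35 FPKM in vehicle 1 to 4 against 0.382, 0.323, 0.445 and 1.73 in CCl4 1 to 4. For Tgfb1 the direction was the opposite of that on counts, at 0.669, 0.267, 0.338 and 0.598 and 1.38, 0.482, 0.761 and 0.268 FPKM, with overlap and no call (limma log2 0.41, adjusted p = 0.687). The sources used here do not give which transcripts entered the FPKM values.

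**Figure D3:**
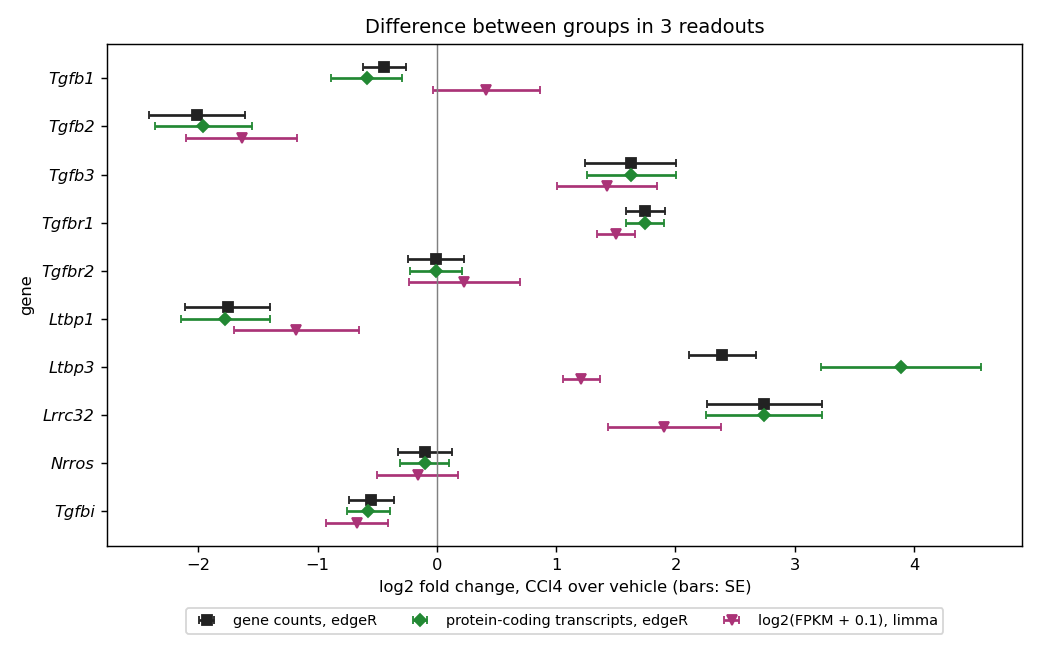
Log2 fold change of CCl4 over vehicle for the 10 genes in 3 readouts, gene counts and protein-coding transcripts by edgeR and log2(FPKM + 0.1) by limma, with bars for the SE (4 libraries per group). All 3 readouts lie on the same side of 0 for the 6 genes called on counts. Tgfb1 and Tgfbr2 have readouts on both sides, those of Tgfbr2 at -0.0047, -0.0064 and 0.23 in the order named.

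Around these genes, 9 lists covered the rest of the pathway, and each is read against 8.93% of genes higher and 6.26% lower. These lists, too, were chosen with earlier results of these data known, so their counts describe them and do not test them as sets. Of 16 activators of latent TGF-beta tested, 5 were higher and none lower (median log2 0.76). Among them Itgb3, the partner of Itgav in an integrin that pulls the propeptide open, read 3.96, 3.44, 1.98 and 7.24 CPM in vehicle 1 to 4 against 9.90, 9.98, 11.4 and 8.66 in CCl4 1 to 4 (log2 1.26, edgeR adjusted p = 0.0234). Without vehicle 1, CCl4 1 or CCl4 3 it did not pass (adjusted p up to 0.0618 by edgeR). Thbs1, Mmp14, Ctsd and Itgav also rose (log2 2.66, 2.28, 2.57 and 0.86), Itgav being outside the rule for named genes and named after its value was seen. Plaur, the urokinase receptor and the second most abundant of the list per length, was 300.0 to 554 CPM in vehicle and 441 to 1195 in CCl4 (edgeR adjusted p = 0.0658). By DESeq2 9 of the activators were higher, and without vehicle 2 and CCl4 4 together edgeR called 8. At an unadjusted p under 0.05 edgeR and DESeq2 each put 1 activator lower.

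Furin, the convertase that cuts the TGF-beta propeptide from the mature ligand, was 24.9, 22.9, 18.6 and 23.2 CPM in vehicle 1 to 4 against 89.5, 68.1, 73.4 and 60.3 in CCl4 1 to 4. The groups were far apart (log2 1.70, SE 0.16, edgeR adjusted p = 5.98e-05). It was the 1 of 3 convertases tested that passed, while Pcsk7 read 24.1 to 59.1 CPM in vehicle and 40.6 to 48.2 in CCl4 (edgeR adjusted p = 0.720).

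Of 6 other latency and storage proteins, 1 was higher and 2 lower (median log2 0.18). Efemp2, a fibulin of elastic fibres, was 34.8, 26.0, 34.3 and 29.4 CPM in vehicle 1 to 4 against 16.9, 20.5, 21.6 and 15.2 in CCl4 1 to 4 (log2 -0.75, edgeR adjusted p = 0.00886). The other members of the Ltbp family were called less firmly. Ltbp2, 1.00 to 1.25 CPM in vehicle and 1.38 to 4.39 in CCl4, was higher (edgeR adjusted p = 0.0337), and lost its call without vehicle 1, 3 or 4 or CCl4 1 or 3 (adjusted p up to 0.106 by edgeR). Ltbp4, 10.8 to 20.1 CPM in vehicle and 3.94 to 11.8 in CCl4, was lower (edgeR adjusted p = 0.0386), and lost its call without vehicle 1 or 4 or CCl4 1, 2 or 4 (adjusted p up to 0.120 by edgeR). Fn1, the fibronectin to which latent complexes attach, was 206 to 606 CPM in vehicle and 378 to 674 in CCl4 (edgeR adjusted p = 0.186).

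Of 10 co-receptors and decoys, 2 were higher and 1 lower (median log2 0.20). Cd109, a membrane-anchored protein that binds TGF-beta and dampens its signalling, was 0.521, 1.25, 0.949 and 0.960 CPM in vehicle 1 to 4 against 11.8, 3.82, 6.11 and 7.18 in CCl4 1 to 4 (log2 2.97, SE 0.40, edgeR adjusted p = 0.000486). Bambi, a receptor without a kinase domain, was 16.9 to 25.0 CPM in vehicle and 25.9 to 34.9 in CCl4 (edgeR adjusted p = 0.0352), and Tgfbr3 (betaglycan) was 7.83 to 14.97 CPM in vehicle and 5.52 to 7.45 in CCl4 (edgeR adjusted p = 0.0364). Both calls rest on most libraries: Bambi lost its own without vehicle 1, 3 or 4 or CCl4 1, 3 or 4 (adjusted p up to 0.0922 by edgeR), and Tgfbr3 without vehicle 2 or 4 or any CCl4 library (up to 0.113). Bambi also did not pass with library-size scaling alone (edgeR adjusted p = 0.138). Dcn, decorin, was 71.3 to 392 CPM in vehicle and 63.6 to 115 in CCl4 (edgeR adjusted p = 0.0547), high in vehicle 2 and 4 as Tgfb2 was.

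Downstream of the receptors, 3 of 18 Smad mediators and regulators were higher and none lower (median log2 0.07). Smad3, a direct substrate of Tgfbr1, was 9.09, 3.58, 8.11 and 7.56 CPM in vehicle 1 to 4 against 27.2, 22.4, 21 and 19.7 in CCl4 1 to 4, without overlap (log2 1.67, SE 0.25, edgeR adjusted p = 0.00109). Its partner Smad2 was 34.0 to 50.9 CPM in vehicle and 30.6 to 38.0 in CCl4 (edgeR adjusted p = 0.186), and Smad4 9.76 to 18.0 CPM in vehicle and 12.9 to 17.1 in CCl4 (adjusted p = 0.506 by edgeR). These 2 lie outside the rule for named genes. Skil, a Smad corepressor, rose (122 to 211 CPM in vehicle and 243 to 292 in CCl4, edgeR adjusted p = 0.0221; up to 0.0796 without vehicle 3, vehicle 4 or CCl4 2). Fkbp1a, the immunophilin that holds Tgfbr1 inactive, rose (98.1 to 119 CPM in vehicle and 126 to 189 in CCl4, edgeR adjusted p = 0.0396; up to 0.119 without vehicle 1, 3 or 4 or CCl4 1, 2 or 3, and 0.0756 with library-size scaling). None of 9 non-Smad mediators passed by edgeR (1 higher and 0 lower at an unadjusted p under 0.05) or DESeq2 (2 and 0), among them Rhoa (266 to 301 CPM in vehicle and 306 to 356 in CCl4) and Mapk14 (63.2 to 96.2 CPM in vehicle and 69.9 to 82.6 in CCl4).

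Of 19 TGF-beta response genes 7 were higher and none lower (median log2 0.40), while Tgfbi, itself such a gene, had a negative log2 fold change that did not pass. At an unadjusted p under 0.05 edgeR and DESeq2 put 0 of these 19 genes lower, and likewise 0 of the 18 Smad genes. Col1a1, type I collagen, was 2.88, 4.55, 4.07 and 8.24 CPM in vehicle 1 to 4 against 15.6, 29.2, 43.1 and 26.7 in CCl4 1 to 4 (log2 2.54, edgeR adjusted p = 0.000666), and it is also on the fibroblast marker list. Spsb1, an adaptor of a ubiquitin ligase, was 3.02 to 4.72 CPM in vehicle and 8.05 to 15.4 in CCl4 (log2 1.61), and Cdkn1a, the cell cycle inhibitor p21, 267 to 465 CPM in vehicle and 555 to 879 in CCl4 (log2 0.97). Timp1, Skil and Bhlhe40 were also called, of which Bhlhe40 did not pass without vehicle 3 or 4 or CCl4 1, 2 or 3 (adjusted p up to 0.0910 by edgeR). Junb, an immediate early gene, was 1785 to 2217 CPM in vehicle and 1376 to 1916 in CCl4 (edgeR adjusted p = 0.312).

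Microglia, the macrophages of the brain, hold a set of signature genes that depend on TGF-beta, and 5 of the 8 such genes tested were higher and 1 lower (median log2 1.18). Gpr34, a lysophosphatidylserine receptor, was 2.72, 1.90, 2.29 and 3.08 CPM in vehicle 1 to 4 against 11.4, 28.6, 17.2 and 18.2 in CCl4 1 to 4 (log2 2.91, edgeR adjusted p = 8.41e-05). Olfml3, a secreted matrix protein, was 9.13, 11.5, 6.96 and 8.12 and 34.6, 67.5, 69.8 and 45.9 CPM (log2 2.61, edgeR adjusted p = 6.16e-05). Fcrls, an Fc receptor-like protein, and Tmem119, a membrane protein used to mark microglia, rose by log2 2.58 and 1.31, and Cx3cr1, the fractalkine receptor, rose too. P2ry12, the ADP receptor of microglia, went the other way, from 93.1, 80.3, 115 and 102 CPM to 27.4, 63.9, 38.4 and 35.5 (log2 -1.24, edgeR adjusted p = 0.00438).

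Of 14 genes tested on the list of other superfamily ligands, 2 were higher and 3 lower (median log2 0.01). That list also holds proteins that are not ligands, Fstl1 among them. Gdf3, a nodal-related ligand, and Fstl1, a secreted follistatin-like protein, rose. The bone morphogenetic proteins Bmp2 (25.1 to 44.6 CPM in vehicle and 11.5 to 25.8 in CCl4, edgeR adjusted p = 0.0161) and Bmp6 (1.503 to 2.32 CPM in vehicle, 0.185 to 0.856 in CCl4, edgeR adjusted p = 0.0423) fell. Lefty1, a nodal antagonist, fell too (5.45 to 7.92 CPM in vehicle and 1.33 to 4.77 in CCl4, edgeR adjusted p = 0.0258). All except Gdf3 lost their call when single libraries were left out, with edgeR adjusted p up to 0.0602 for Fstl1 (without vehicle 1 or 3 or CCl4 1 or 3) and 0.0524 for Bmp2 (without vehicle 4 or CCl4 2). For Bmp6 it reached 0.123 (lost without any library but CCl4 4) and for Lefty1 0.0831 (without vehicle 3 or 4 or CCl4 1 or 3) by edgeR. Bmp2 and Fstl1 overlapped between groups and were named after their values were seen. Gdf15, the most abundant per length, was 137 to 207 CPM in vehicle and 98.7 to 234 in CCl4 (edgeR adjusted p = 0.595).

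**Figure D4:**
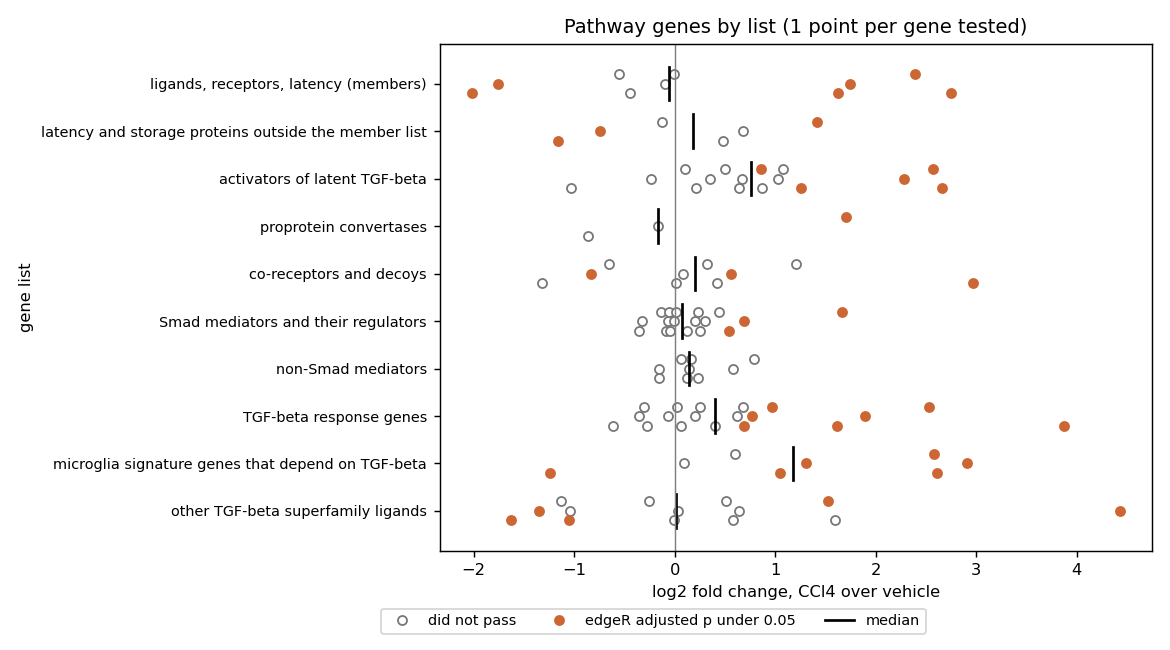
Log2 fold change of CCl4 over vehicle for each gene tested in the 10 member genes and the 9 pathway lists (filled points: edgeR adjusted p under 0.05) with a bar at each list's median. Of the 9 pathway lists, only the other latency and storage proteins and the other superfamily ligands have more than 1 filled point left of 0. The 10 member genes have filled points on both sides.

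Across the libraries, estimated counts summed to between 19489104 and 26196063. Of all genes tested 1358 were higher and 953 lower, so that 58.8% of calls were higher, and this share was 43.1% with library-size scaling alone and 47.5% with upper-quartile scaling. Library-size scaling moved the median log2 fold change of all genes from -0.03 to -0.16, and the 6 called members kept both their direction and their call under both scalings. Adgre1, which encodes F4/80, was 964 to 1430.3 CPM in vehicle and 1041 to 1414 in CCl4, and Ptprc, which encodes CD45, 414 to 605 CPM in vehicle and 541 to 716 in CCl4. Kupffer cell markers were lower (6 of 7, with Clec4f and Cd5l the most abundant), monocyte markers higher in 2 of 6 (Ccr2 and Chil3) and neutrophil markers higher in 5 of 10. Of 9 macrophage markers 1 was higher (Lyz2, the most abundant, followed by C1qb). The sums of olfactory and vomeronasal receptor genes, which macrophages are not known to use, were 3130.0 CPM in vehicle 2 and 3072 in CCl4 4 against 609.9 to 1552 in the other 6, and mitochondrially encoded genes took 1.91 to 5.31% of counts in vehicle and 0.763 to 1.16% in CCl4. The part of these in the members' values was not tested, and all 6 calls held without vehicle 2 and CCl4 4 and in each of the 8 fits that left out 1 library.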

How the data were processed

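RNA was measured in 4 vehicle and 4 CCl4 libraries, grouped by the treatment label. Estimated counts and TPM per transcript were deposited by the authors in 1 table per sample, neither scaled between samples, and FPKM per gene were deposited by the authors in 1 table of the series. The submitters' processing notes name mm10, kallisto, edgeR and limma, and the sources used here do not give their versions, settings or roles. Per the labels' protocols, RNA was amplified by SMART-Seq HT before library preparation with no named strand-marking step.

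Transcripts were matched to GENCODE M21 by identifier without version (116405 of 117494, but 13 with the version), and the 1089 unmatched ones, 0.29% to 0.313% of counts, were left out. All 59 transcripts of the 10 genes had the same length in the files and in M21. Estimated counts were summed per gene and rounded to whole numbers, with library totals of 19489104 to 26196063, and these totals limit precision most for genes of few counts. kallisto divides reads among transcripts that share sequence, so transcript values carry an error that these tables do not give. An unnamed row of the FPKM values was left out, and limma tested the 24443 genes that were above 0 in any library. Libraries of 1 group were checked for duplicates, and none was found (mean chi-square per gene 30.02 or more).

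The groups were compared in R 4.3.3 with edgeR 4.0.16, whose quasi-likelihood test was run two-sided with TMM scaling, filterByExpr (minimum count 10, minimum total 15), group as the sole term and Benjamini-Hochberg adjustment over 15212 genes at a threshold of 0.05. The code was tested on simulated data. The SE is the log2 fold change divided by the square root of the F statistic. Marker list sums are CPM over the plain library total, with no TMM factor. The largest transcript share of each gene with more than 1 transcript was compared by two-sided exact permutation over samples. Alternatives were other scalings, filters, DESeq2 1.42.0, limma 3.58.1 (voom on counts, trend on log2(FPKM + 0.1) and log2(FPKM + 1)), length-scaled counts, a replicate block, leaving out libraries and, added after the data were seen, protein-coding transcripts alone. The members and gene lists were chosen with earlier results of these data known. All members were named, and of each pathway list the called genes without overlap between groups (at most 4 per direction, by size of change) and the 2 most abundant per length. Of each marker list the 2 most abundant by CPM could be named, and the genes of the gate. Other markers given by name, as called genes or with values (Reln, Lrat and Foxp3), were named after their values were seen. Results for some genes are not reported here.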

Additional observations from a re-analysis of the deposited data

Results flagged for a closer look

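A single library stood far from the other 3 of its group in 4 of the 20 groups of values tested (10 genes, 2 treatments), where chance alone gives about 1 in 20. The 20 groups come from the same 8 libraries and are not independent, so the 4 flags do not establish an excess over that rate. The test was Dixon's, in which the gap to the nearest library divided by the range of the group exceeds the 95% critical value for 4 samples. Tgfbr1 was low in vehicle 2, at 60.19 CPM (gap over range 0.885), and Nrros was low in the same library, at 331.28 CPM (0.877). Ltbp1 was high in vehicle 4, at 82.95 CPM (0.894). Nrros was high in CCl4 3, at 669.33 CPM (0.906). Vehicle 2 also had the lowest Tgfbr2 and Tgfb3 of the 8 libraries, the lowest vehicle total, and the highest sum of olfactory and vomeronasal receptor genes. The part of that library's quality in these values was not tested. Without vehicle 2 the log2 fold change of Tgfbr1 was 1.65 and that of Nrros -0.28 (edgeR adjusted p = 0.309).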

How the results depend on the processing

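The calls of Tgfb2, Tgfb3, Tgfbr1, Ltbp1, Ltbp3 and Lrrc32 held under every other setting run on counts, and some were lost on the deposited FPKM. With limma on log2(FPKM + 0.1), log2(FPKM + 1) and log2(FPKM + 0.1) at a mean FPKM of 1 or more, the genes higher in CCl4 numbered 375, 335 and 427 (1358 on counts) and the genes lower 319, 315 and 510 (953 on counts). Of those called on counts, 635, 595 and 813 of 2311 were also called there. Under each of these 3 FPKM settings 2 members were higher and 0 lower by limma, with 2 lower at an unadjusted p under 0.05. At a mean FPKM of 1 or more 6 members had a value, Tgfb1, Tgfb2, Ltbp3 and Lrrc32 being left out. With library-size scaling alone 1431 genes were lower. The cause of these differences was not tested.

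Leaving out 1 library at a time gave 1004 to 1503 genes higher and 578 to 1163 lower, the lowest of the lower counts being without CCl4 1. The members higher stayed at 4 and those lower were 2 to 3, Tgfbi joining without vehicle 2 and without CCl4 2. Without vehicle 2 and CCl4 4 together Tgfbi also passed (edgeR adjusted p = 0.0346). The sign of Tgfb1 turned on FPKM (0.41 with 0.1 added and 0.20 with 1 added). Tgfbr2 turned to 0.0091 with RLE size factors, 0.0157 without a filter, 0.0145 with DESeq2, 0.06 with voom, 0.0814 on length-scaled counts, 0.23, 0.15 and 0.23 on the 3 FPKM settings and 0.0545 with the replicate block, and ran from -0.21 to 0.14 with 1 library left out. The difference in the Lrrc32 transcript share turned to -1.23 percentage points when taken from counts. With 1 library left out, that difference ran from -7.25 to 0.557 points for Tgfb2, -8.79 to 3.44 for Ltbp3, -3.55 to 4.55 for Lrrc32 and -0.912 to 3.11 for Nrros, and none passed with all libraries.

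The replicate numbers are shared by the groups, but deviations of same-numbered samples correlated at 0.0152, -0.241, 0.0387 and -0.169, so the numbers were not taken as pairs. With the replicate block 1281 genes were higher and 829 lower, and the members called were 4 higher and 2 lower. With 4 libraries a group, no exact p over samples can fall below 0.0286. Transcripts with few counts, such as Tgfb1-205 and the noncoding long-form transcripts of Ltbp1, have levels that this depth fixes poorly.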
